A study of Mus musculus with 12 samples.

Results

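The genes described here are 9 mouse genes that load the replication clamp or finish the lagging strand: the clamp loader subunits Rfc1, Rfc2, Rfc3, Rfc4 and Rfc5, the alternative loader subunit Chtf18, the nucleases Fen1 and Dna2, and the ligase Lig1. They were chosen by name and function, with earlier results of these data known, and all 9 were measured, among 23102 genes in all. Expression was measured in 12 oral tumours of C57BL/6 × FVB F1 mice, all given tamoxifen into the peritoneum, with 1 Affymetrix Mouse Gene 2.0 ST array per tumour. The 6 KR tumours expressed RAS, and the 6 KHR tumours expressed RAS and a transgene written iHPV, which a second label of the same samples names HPV E6. The promoter that drives each transgene, the meaning of the letters, and the age and sex of the mice are not stated in the sources at hand. Nor do the labels tie each tumour to a mouse of its own, and the p-values below measure only the spread between these 12 samples, which may be technical in part. The question is how the viral transgene, added to RAS, goes with the expression of these genes.

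During DNA replication one strand is made in short pieces, the Okazaki fragments, each begun on an RNA and DNA primer. The replication factor C complex (RFC), a large subunit Rfc1 with the small subunits Rfc2 to Rfc5, uses ATP to open the ring-shaped clamp PCNA and close it around the primed DNA, where it holds the polymerase. When the polymerase meets the previous fragment it lifts the old primer into a flap; Fen1 cuts short flaps, Dna2 cuts long ones, and Lig1 seals the nick that is left.

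The values are log2 intensities, so a change of 1 is a doubling, and each change is KHR minus KR. Levels of different genes come from different probes and are not compared. Arrays had similar medians, between 5.62 and 5.75. The mean of 6 epithelial markers was 11.58 to 11.91 on KR arrays and 11.52 to 11.98 on KHR arrays, with members that differed in opposite directions. The basal keratin Krt5 was at 13.19 in KR and 13.17 in KHR tumours, the suprabasal keratin Krt13 fell from 12.78 to 11.52 (adjusted p = 0.00571), and Epcam, an adhesion protein, was at 10.48 and 11.36 (adjusted p = 0.067). The means of 10 skeletal muscle markers (5.35 to 6.79 in KR, 5.56 to 8.05 in KHR, KHR 5 highest), 6 macrophage markers (5.78 to 6.93 and 6.44 to 7.16) and 5 neutrophil markers (7.48 to 8.61 and 8.46 to 8.89) overlapped between the groups. Xist, the RNA of the inactive X chromosome, was above 8 on 2 of 6 KR and 4 of 6 KHR arrays. Whether these differences take part in the changes below was tested for Xist and the muscle mean, as covariates, and not for the neutrophil and macrophage means.

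Of the 9 genes, 4 rose and none fell in KHR tumours by limma's test over all genes, at an adjusted p under 0.05. These were Rfc3, a small loader subunit, at 2.73-fold, Dna2, the long flap nuclease, at 2.70-fold, Lig1, the nick ligase, at 1.92-fold, and Rfc5, a further small subunit, at 1.80-fold. Of all genes tested, 2.71% were called higher and 3.74% were called in either direction. All 9 changes were above 0, with a median of 0.83, against 0.00 over all genes, although that of Chtf18 turned below 0 with its dim probesets left out. In the same 4 genes every KHR tumour lay above every KR tumour, which held for 1.83% of all genes. In whole tumours, fewer cells of a type and less RNA per cell cannot be told apart.

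**Figure D1:**
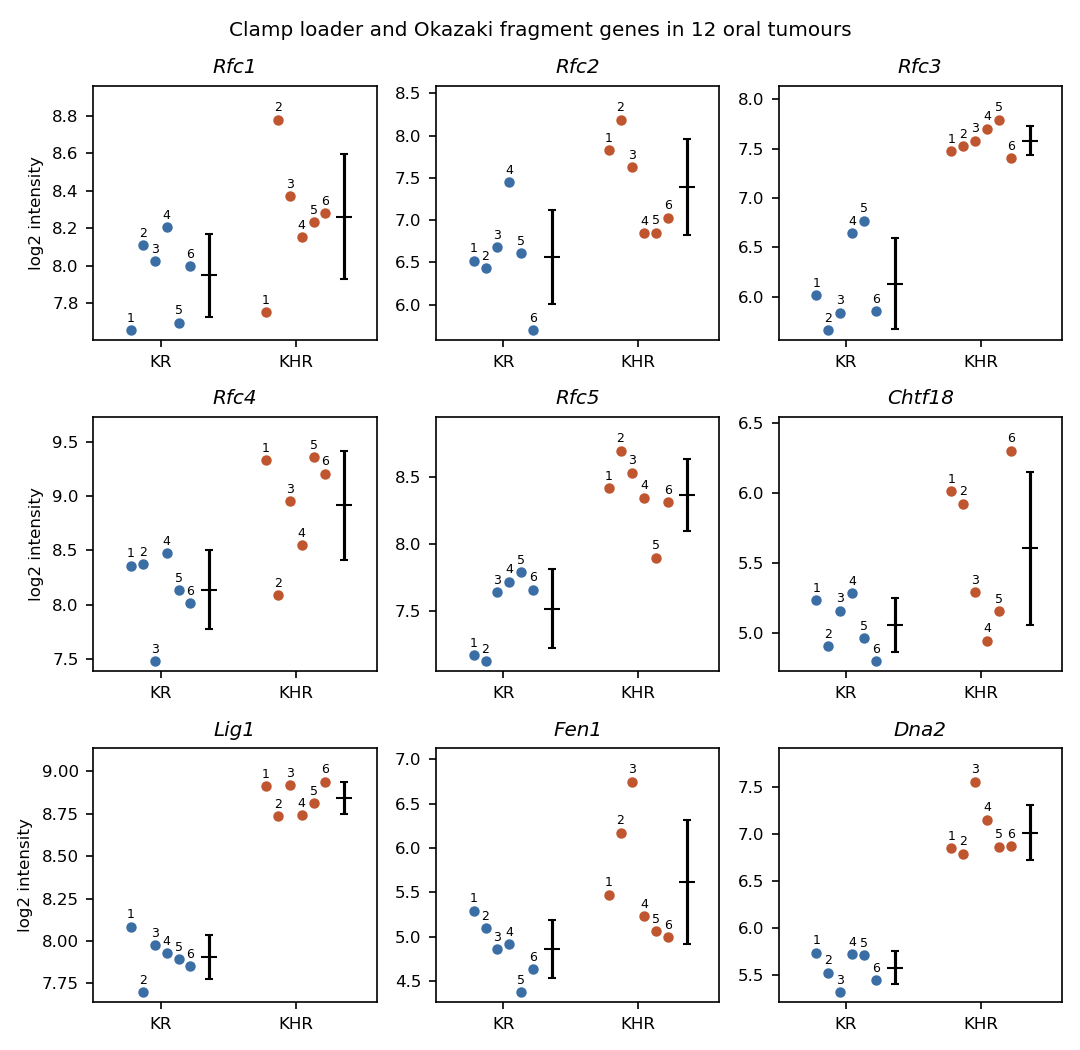
Each panel plots the log2 intensity of 1 gene in the 6 KR (blue) and 6 KHR (orange) tumours, numbered by replicate, with black marks for the mean ± SD and a vertical scale of its own. The groups of Rfc3, Rfc5, Lig1 and Dna2 do not overlap, with gaps of 0.63, 0.11, 0.65 and 1.05, while those of the other 5 genes do.

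The stretches upstream of 4 of these genes, which moved in the same direction, are printed here. They are the 3 called genes with the smallest p, and Rfc4, whose call depended on how its probesets were summarised. Rfc5, the other called gene, is not printed, and none of the words searched below was found near its start. The sequences are RefSeq's for the build GRCm38.p6, 250 bases before and 30 after the start of transcription, 5′ to 3′ on the gene's own strand. Capitals mark the searched words, on either strand: E2F-type words of 8 letters (TTTCCCGC, TTTGGCGC, TTTGCCGC or TTTCGCGC), the shorter core TCCCGC, which the first of them contains, CCAAT and TTTGAA. E2F factors, which the retinoblastoma protein holds back, are known activators of replication genes.
Rfc3 (chr5:151651179-151651458, minus strand): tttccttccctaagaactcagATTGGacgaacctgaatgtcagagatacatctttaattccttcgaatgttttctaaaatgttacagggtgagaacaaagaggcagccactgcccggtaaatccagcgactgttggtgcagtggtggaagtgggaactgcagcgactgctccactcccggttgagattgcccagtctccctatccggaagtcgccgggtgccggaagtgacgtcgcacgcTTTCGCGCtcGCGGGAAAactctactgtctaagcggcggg
Dna2 (chr10:62946779-62947058, plus strand): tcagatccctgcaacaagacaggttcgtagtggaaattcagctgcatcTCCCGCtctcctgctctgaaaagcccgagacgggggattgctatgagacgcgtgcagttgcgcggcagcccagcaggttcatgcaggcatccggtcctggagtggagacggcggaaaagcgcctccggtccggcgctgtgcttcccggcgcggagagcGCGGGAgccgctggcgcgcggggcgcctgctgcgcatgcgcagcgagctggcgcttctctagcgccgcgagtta
Lig1 (chr7:13278576-13278855, plus strand, the second of 3 starts listed): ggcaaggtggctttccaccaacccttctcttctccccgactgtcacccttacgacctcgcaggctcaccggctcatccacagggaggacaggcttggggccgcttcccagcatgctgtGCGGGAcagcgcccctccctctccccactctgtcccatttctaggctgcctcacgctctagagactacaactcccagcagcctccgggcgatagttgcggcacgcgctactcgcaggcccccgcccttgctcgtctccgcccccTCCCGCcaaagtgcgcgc
Rfc4 (chr16:23127701-23127980, minus strand): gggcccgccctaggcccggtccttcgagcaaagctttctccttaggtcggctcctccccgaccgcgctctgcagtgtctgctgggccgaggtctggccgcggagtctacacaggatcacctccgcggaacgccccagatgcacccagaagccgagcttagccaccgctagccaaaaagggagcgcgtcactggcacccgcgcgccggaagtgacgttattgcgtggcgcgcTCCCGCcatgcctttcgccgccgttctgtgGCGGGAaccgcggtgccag
In Rfc3 the words TTTCGCGC and, on the other strand, GCGGGAAA began at positions -10 and 1 from the start, and ATTGG, the reverse complement of CCAAT, at -229. In Dna2 the core began at -202 and -44, in Lig1 at -132 and 13, and in Rfc4 at -19 and 12. Promoters of 8 of the 9 genes were matched, and that of Rfc2 was not.

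Windows from 250 bases before to 50 after the start were searched for all 8. An E2F word of 8 letters was found in 2 of them, Rfc3 and Lig1 (in Lig1 at 27, running past the printed stretch), and in 2.60% of the 27025 genes in the table, counting a gene where any start holds the word. The core TCCCGC was in 7 of 8, all but Rfc5, against 22.1% of those genes. The core is rich in G and C, and the windows that held it had a GC content of 45.3% (Fen1) to 68% (Rfc1), against a median of 52.7% over all promoters; the part of GC content in this count was not tested. CCAAT was in 3 (Rfc1, Rfc3 and Chtf18) against 41.1%, and TTTGAA, a cell cycle element, in 1 (Fen1) against 20.2%. Rfc5 rose without the core in this window, and Rfc1, Rfc4, Chtf18 and Fen1 held it and were not called with the median of probesets. These are matches of letters and say nothing of binding.

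Among the loader subunits, Rfc1, the large subunit that holds the complex on PCNA, had the smallest change of the 9 genes with the median of probesets. Chtf18 was smaller with the mean (0.27 against 0.35 for Rfc1), with median polish, which fits a common profile to the probesets (0.22 against 0.30), and with bright probesets, those above the median level (-0.10 against 0.28), and so was Fen1 with the mean (0.34) and polish (0.26). Its level was 7.66 to 8.20 in KR tumours (median 8.01) and 7.75 to 8.78 in KHR tumours (median 8.26). The groups overlapped, with KHR 1 close to the lowest KR tumours and KHR 2 highest. The change was 0.31 ± 0.15 (SE, n = 6 each; limma adjusted p = 0.346), and its 95% interval ran from -0.02 to 0.64. It passed under no setting tried.

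Rfc3 was lower and more spread in KR tumours, from 5.66 in KR 2 to 6.77 in KR 5 (median 5.94), and lay between 7.40 and 7.80 in KHR tumours (median 7.55). Every KHR tumour was above every KR tumour. The change was 1.45 ± 0.18 (adjusted p = 0.000697, 45th of all genes by p). Rfc5 ran from 7.13 to 7.79 in KR (median 7.65) and from 7.90, in KHR 5, to 8.70 in KHR (median 8.38). Its groups were separate by a narrow gap, and its change was 0.85 ± 0.15 (adjusted p = 0.00672).

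With the median of probesets, Rfc2 and Rfc4, the other small subunits, had changes close to that of Rfc5 with wider errors. With the mean, Rfc2 minus Rfc5 was -0.27 and Rfc4 minus Rfc5 was 0.22 (exact permutation adjusted p = 0.188 and 0.242). Rfc2 lay between 5.70 and 7.45 in KR (median 6.57) and between 6.85 and 8.19 in KHR (median 7.33), a change of 0.83 ± 0.28 (adjusted p = 0.141). Its SD was 0.56 and 0.57, larger than that of 96.5% and 96.4% of all genes in the same groups. KR 4 was above 3 of the 6 KHR tumours. Rfc4 lay between 7.48 and 8.47 in KR (median 8.25) and between 8.09 and 9.36 in KHR (median 9.08), and 5 of 6 KHR tumours were above every KR tumour. Its change was 0.78 ± 0.23 (adjusted p = 0.0800). KHR 2, at 8.09, was the tumour inside the KR range, and without it the change was 0.94 with an adjusted p of 0.0179.

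Chtf18 takes the place of Rfc1 in a second loader, which also holds Dscc1 and Chtf8 and is known for work at the fork and in cohesion between sister chromatids. It lay between 4.80 and 5.28 in KR (median 5.06) and between 4.95 and 6.30 in KHR (median 5.61), a change of 0.55 ± 0.21 (adjusted p = 0.202). The KHR tumours were spread, with KHR 1, KHR 2, KHR 3 and KHR 6 above the KR range and KHR 4 and KHR 5 inside it. The SD was 0.19 in KR and 0.54 in KHR. Of its 17 probesets 11 were below the median level of all probesets, 5.62, and with these left out the change was -0.10 (adjusted p = 0.865), so no direction is given for this gene.

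Of the flap nucleases, Dna2 rose. It lay between 5.33 and 5.74 in KR (median 5.62) and between 6.79 and 7.55 in KHR (median 6.87), with KHR 3 highest. The gap between the groups, 1.05, was the widest of the 9 genes. The change was 1.43 ± 0.13 (adjusted p = 7.38e-05, 15th of all genes by p).

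Fen1, between 4.38 and 5.30 in KR (median 4.89) and between 5.00 and 6.75 in KHR (median 5.35), overlapped between the groups. KHR 2 and KHR 3 stood highest, at 6.17 and 6.75. The change was 0.75 ± 0.28 (adjusted p = 0.175). On 11 of 12 arrays this median was the value of 1 probeset with a mean level of 5.24, so the gene's value rests on a single dim probeset. With the mean over its 7 probesets Fen1 passed, at 0.34 (adjusted p = 0.0231), and with the 3 brighter ones at 0.86 (adjusted p = 0.0332). The size of its change depended on the summary.

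Lig1 had the tightest values of the 9 genes. It lay between 7.70 and 8.08 in KR (median 7.91) and between 8.74 and 8.94 in KHR (median 8.86), with no overlap. Its SD of 0.13 and 0.09 was larger than that of 17.6% of genes in KR and 6.13% in KHR. The change was 0.94 ± 0.08 (adjusted p = 5.11e-05, 12th of all genes by p).

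Rfc3, Rfc5, Lig1 and Dna2 passed in each of the 12 fits that left out 1 tumour and under each of 12 other settings, among them Xist or the muscle mean as a covariate. Their highest adjusted p over these was 0.00254 for Rfc3, 0.0309 for Rfc5, 0.00107 for Lig1 and 0.00188 for Dna2. With Xist as a covariate the changes were 1.41, 0.86, 0.94 and 1.39 in that order. The exact permutation test of each of these 4 genes gave p = 0.00216, the smallest that 6 against 6 can give. Groups that do not overlap always give this value, so it adds nothing to the separation described above. For the other genes the unadjusted exact p ran from 0.0173 (Rfc4) to 0.0801 (Rfc1).

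The 9 genes were read by 140 probesets, of which 45 were called higher and 0 lower in a limma fit of all 269751 probesets, where 0.616% were called higher. Probesets of a gene share its RNA and are not replicates. Dna2 had 14 of 21 called and all 21 above 0, Lig1 12 of 21, Rfc5 7 of 14 and Rfc3 6 of 13. Rfc4, not called as a gene, had 6 of 11 called and 10 of 11 above 0. Rfc1, Rfc2, Chtf18 and Fen1 had none called, of 23, 13, 17 and 7. Calls went with brightness: 44 of the 102 probesets above the median level were called and 1 of the 38 below it. The same split over all probesets was not computed, so this is not shown to be particular to these genes. The count fell to 26 without KHR 3 and to 28 without KHR 4 or KHR 6. A further 3 probesets of Rfc4 are shared with Eif4a2, and 7 of Chtf18 with Gng13, and were not used.

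**Figure D2:**
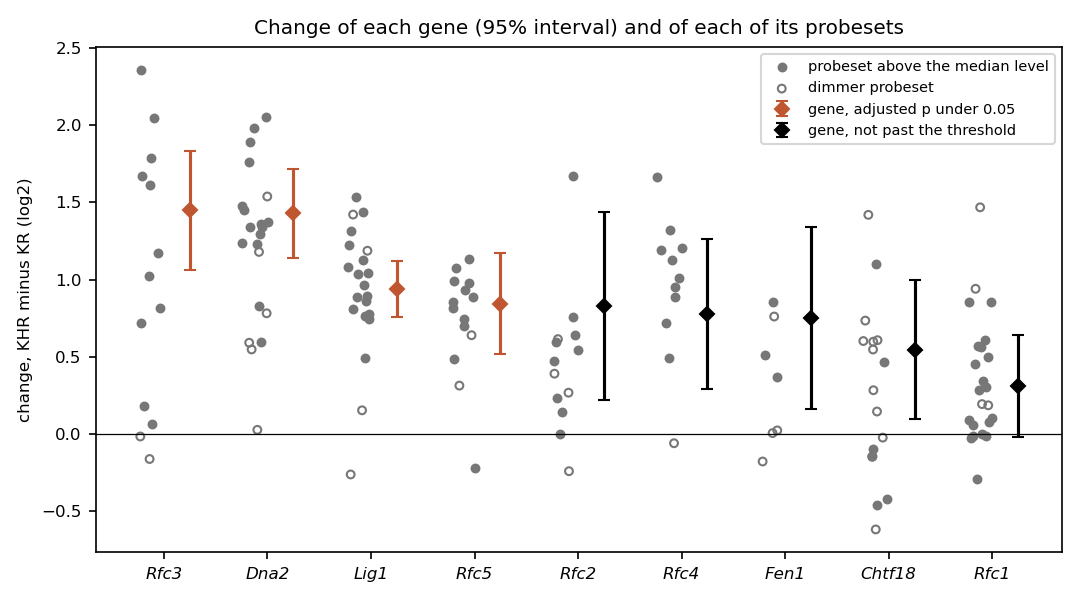
Diamonds give the change of each gene on the log2 scale with its 95% interval (orange where the adjusted p is under 0.05), and circles the change of each of its probesets, filled where the level is above the median of all probesets. All 21 Dna2 circles lie above 0, and those of Chtf18 run from -0.62 to 1.42.

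The summary of probesets decided the call of Rfc4. With the mean over probesets its change was 0.96 (adjusted p = 0.000657) and with median polish 1.02 (adjusted p = 0.00177). With polish its tumours ran from 7.67 to 8.35 in KR and from 8.61 to 9.40 in KHR, with no overlap. Rfc2 passed with polish alone (0.54, adjusted p = 0.0397). In all, 6 of 9 genes were called with the mean, with polish and with bright probesets only, against 4 with the median. More genes were also called over all genes with the mean than with the median, as counted further below. The counts over all genes with polish and with bright probesets are not given here. The change of Rfc3 itself was 1.45 with the median and 1.02 with the lowest of the other settings, still called.

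**Figure D3:**
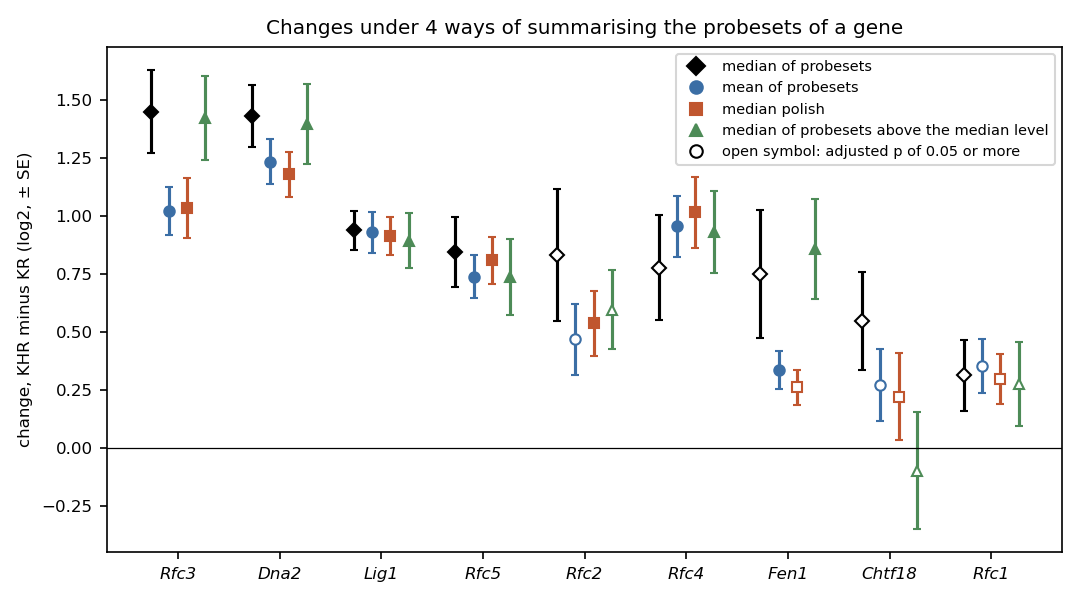
Points are the change of each gene (log2, ± SE) under 4 ways of summarising its probesets, filled where the adjusted p is under 0.05. Rfc3, Dna2, Lig1 and Rfc5 are filled under all 4, Rfc1 under none, and Chtf18 falls from 0.55 to -0.10 when dim probesets are left out.

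Ordered by change with the median of probesets, the genes ran Rfc3, Dna2, Lig1, Rfc5, Rfc2, Rfc4, Fen1, Chtf18 and Rfc1. The order shifted with the summary, and with the mean Rfc3 minus Dna2 was -0.21 (exact permutation adjusted p = 0.169). The amounts of change were compared for all 36 pairs by an exact permutation test, two-sided, on the within-array difference. None of 36 passed after adjustment over the pairs (lowest adjusted p = 0.0779), and 13 had an unadjusted p under 0.05. With 36 pairs, 1 pair alone at the smallest p that 6 against 6 can give, 0.00216, adjusts to 0.0779, so a single fully separated pair could not pass and the missed threshold does not show equal changes. Among neighbours in the order, Lig1 minus Dna2 was -0.49, with a 95% interval of -0.80 to -0.18 and that smallest exact p. Its adjusted p was 0.039 without KHR 2 or without KHR 6, and it did not pass with any other tumour left out. Nor did this pair pass with the mean (-0.30, exact adjusted p = 0.0557), polish (-0.27, 0.0896) or bright probesets (-0.50, 0.0974). The other 7 neighbours had exact adjusted p from 0.674 to 0.968. Rfc3 minus Dna2 was 0.02 (95% interval -0.41 to 0.45), and Rfc1 minus Rfc3 was -1.13 (-1.74 to -0.53, exact adjusted p = 0.0779). With the mean 18 pairs passed, with polish 14 and with bright probesets 13. The same 7 pairs passed in all 3 of these: Rfc1 below Rfc3, Lig1 and Dna2, Chtf18 below the same 3 genes, and Rfc2 below Dna2.

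Genes of mitosis, a later phase of the cell cycle, were measured beside them. Of 17 such genes 13 rose (median 0.72). Among them Ccnb2, a cyclin of mitotic entry, rose by 0.81 ± 0.11 and Ttk, a checkpoint kinase, by 0.99 ± 0.15. Aurkb, a kinase of chromosome segregation, rose by 0.64 ± 0.10. Cdca8, a partner of Aurkb, was at 0.33 (adjusted p = 0.278). The mean of the mitosis list was 8.06 to 8.36 on KR arrays and 8.79 to 9.08 on KHR arrays. Each of the 9 genes was set against that mean on the same array, in a comparison added after the data were seen. Rfc3 changed by 0.76 more than the mitosis mean and Dna2 by 0.75 more, each with an exact permutation adjusted p of 0.00974 over the 9 genes. The change of Lig1 differed from that of the mitosis mean by 0.25 (adjusted p = 0.0714, exact) and that of Rfc1 by -0.37 (adjusted p = 0.0877, exact). The other 5 did not pass. Rfc3 and Dna2 changed by more than the mitosis mean under all 4 summaries and with each tumour left out. Lig1 and Rfc4 also changed by more, and Fen1 by less, with the mean and with polish. Rfc1 changed by less with polish (-0.32, exact adjusted p = 0.0455). The excess change of Rfc3 over the mitosis mean was smaller with the mean over probesets (0.39) and with polish (0.41). There it was near that of Rfc4 (0.33 and 0.39), while Dna2 was at 0.60 and 0.56.

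Among 10 clamps and loader partners, 3 rose and none fell (median 0.48). They were the clamp Pcna (0.93 ± 0.10, adjusted p = 0.000379), Atad5 (0.85 ± 0.11, adjusted p = 0.00079), the large subunit of the complex that takes PCNA off DNA, and Rad9b (0.84 ± 0.15, adjusted p = 0.00622), of the checkpoint clamp family. Chtf8, the partner of Chtf18, was at 0.02 (adjusted p = 0.943), and its other partner Dscc1 at 0.51 (adjusted p = 0.102). Rfc1, Chtf18, Atad5 and Rad17, which loads the checkpoint clamp, are the alternative large subunits that share Rfc2 to Rfc5. Of these 4, Atad5 passed, and Rad17 was at 0.24 ± 0.14 (adjusted p = 0.473). Dscc1, Rad17 and the ligases below were chosen after their values were seen.

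On the same arrays Atad5 changed by 0.61 ± 0.15 more than Rad17 (exact permutation adjusted p = 0.0108 over 5 such comparisons) and by 0.54 ± 0.19 more than Rfc1 (adjusted p = 0.0469, exact). The second was lost with quantile normalization (adjusted p = 0.0505) and in 10 of 12 fits that left out a tumour, all but those without KR 5 or KHR 2 (highest adjusted p = 0.0893). It passed with the mean (0.45, exact adjusted p = 0.00361), with polish (0.51, 0.00271) and with bright probesets (0.60, 0.0135). Atad5 against Chtf18 was 0.31 ± 0.29 (adjusted p = 0.316, exact). This difference passed with the mean (0.53, exact adjusted p = 0.0455) and bright probesets (0.97, 0.0135), and not with polish (0.59, 0.0541). Among the ligases, Lig3, which serves repair and mitochondria, was at -0.09 ± 0.09, and Lig1 changed by 1.03 ± 0.09 more than Lig3 (adjusted p = 0.0108, exact). Lig4, of end joining, was at 0.39 ± 0.24, and the difference from Lig1 was 0.54 ± 0.26 (adjusted p = 0.0812, exact). That difference passed with the mean (0.73, exact adjusted p = 0.0108) and polish (0.66, 0.00271), and not with bright probesets (0.56, 0.0563). These 5 comparisons were chosen after the data were seen, and their adjusted p-values do not correct for that choice.

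Of 12 genes that prime and extend the lagging strand, 9 rose (median 0.80). Prim1, the primase catalytic subunit, rose by 1.62 ± 0.09 (adjusted p = 3.4e-07), Wdhd1, which ties the polymerase to the helicase, by 1.05 ± 0.12 (adjusted p = 0.000484), and Prim2, the partner of Prim1, by 0.88 ± 0.12 (adjusted p = 0.00125). Pold2, of polymerase delta, was at 0.16 (adjusted p = 0.633). Of 21 helicase and leading strand genes, 15 rose (median 0.77), with Mcm6 at 1.30, Mcm4 at 1.11 and Pole at 0.84, and Pole3 at 0.34 did not pass.

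The list of further primer removal, flap and nick enzymes held 18 genes, set beside Fen1, Dna2 and Lig1. Several of them, such as Lig4, are enzymes of repair, so the list is not one of Okazaki fragment enzymes alone. In this list 4 genes rose, and the median was 0.23. They were Blm, a helicase (1.03 ± 0.21, adjusted p = 0.0137), Rnaseh2b, of the enzyme that cuts RNA in DNA hybrids (0.88 ± 0.13, adjusted p = 0.00151), Exo1, a nuclease of the same family as Fen1 (0.78 ± 0.15, adjusted p = 0.00908), and Gen1 (0.76, adjusted p = 0.019), named after its value was seen. Rnaseh2c, the partner of Rnaseh2b, was at 0.00 (adjusted p = 0.997). Over these 5 lists 44 of 78 genes rose and none fell.

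**Figure D4:**
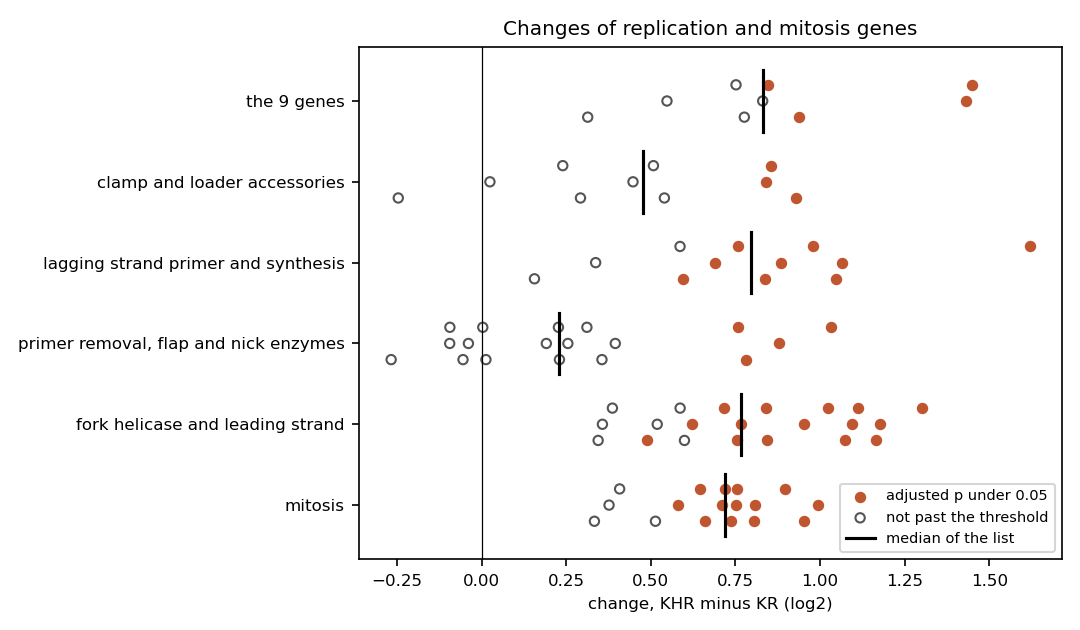
Each point is the change of 1 gene (KHR minus KR, log2), filled where the adjusted p is under 0.05, for the 9 genes and for 5 lists, with a bar at each list's median; height within a strip only separates points. The medians are 0.83 for the 9 genes, then 0.48, 0.80, 0.23 (a list that includes repair enzymes) and 0.77 from top to bottom, and 0.72 for mitosis.

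The genes whose course over the 12 arrays was nearest to the mean course of the 9 were Pop4, of RNase P, Cenpu, of the centromere, Cks1b, a partner of cyclin-dependent kinases, Pcna, and Naa38, of an acetyltransferase. Nearness was the mean absolute difference of centred log2 values, which was 0.108 to 0.127 for these 5 and had a median of 0.453 over all genes. Of the 9 genes, Lig1 was nearest to the mean course, at 0.143, and Fen1 farthest, at 0.367.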

How the data were processed

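Total RNA of 12 tumours was measured, 1 array each. The deposited values are log2 intensities per probeset, 269751 in all, made by the authors with Partek, no version named, per the submitters' processing notes. How background was corrected and arrays normalized, and on which genome build, is not given in the sources used here; base 2 was inferred from the spread of values, 2.66 to 14.95. Probesets were named from GEO's platform annotation (233753 with 1 symbol, 5106 with several, 30892 with none), and 2247 older symbols were updated through RefSeq's table of GRCm38.p6, 30 being kept unmatched. A gene's value was the median of its probesets with 1 symbol, and no dim gene was left out.

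Tests of genes and of probesets used lmFit and eBayes of limma 3.58.1 in R 4.3.3, two-sided, without covariates on 6 against 6 arrays, with Benjamini-Hochberg adjustment over all of them (threshold 0.05). The fit was tested on simulated data. Single values used exact permutation tests (Python 3.11.15, scipy 1.17.1), adjusted over the family named. Figures used matplotlib 3.10.9. The number of arrays limits the precision. The highest correlation between arrays was 0.97, so none was a copy.

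The 9 genes and all lists were chosen with earlier results of these data known. Named are, by rule, the 9 genes, of each list the 3 genes with the smallest and the 1 with the largest p, and the 5 nearest profiles; others are said to be chosen after their values were seen. Of the marker lists, T cell, endothelium, skeletal muscle, macrophage and B cell markers had no gene called, epithelium had Krt13 lower, fibroblasts Col1a2 lower (-0.80) and neutrophils Cxcr2 higher (0.83). Ccnb1 and 1 B cell marker are not analysed here. Alternatives were other probeset summaries, scalings, filters, fits, covariates, thresholds and leaving out each tumour. The summary by bright probesets and the comparisons with the mitosis mean and with related enzymes were chosen after seeing the data.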

Additional observations from a re-analysis of the deposited data

How the results depend on the processing

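Rfc3, Rfc5, Lig1 and Dna2 kept their direction and call under all settings tried, and the number of the 9 genes called was 4 to 6. Over all genes 863 were called (625 higher, 238 lower), 1445 with the mean over probesets, 555 with Xist as a covariate, 312 at an adjusted p under 0.01, and 523 to 1085 with 1 tumour left out (531 without KR 2, 523 without KHR 4). With quantile normalization the split was 547 higher and 304 lower, and with array medians subtracted 538 and 297; both moved the median of all genes by less than 0.1. Of the 45 called probesets of the 9 genes, 15 were left at an adjusted p under 0.01, 23 with the replicate block, and 26 to 43 with 1 tumour left out. Pairs that differed rose from 0 to 18 with the mean, 14 with polish and 13 with bright probesets, and were 0 to 5 with 1 tumour left out (5 without KHR 2, 2 without KHR 6). Genes that differed from the mitosis mean rose from 2 to 5 with the mean and 6 with polish (2 to 3 with 1 tumour left out), and comparisons with related enzymes from 3 to 5 with the mean (2 to 3 with 1 tumour left out). Without KR 1 or KR 3, Lig1 also passed against the mitosis mean, and without KHR 2, Rfc1 did, with a smaller change than that mean. Partner genes called were 41 to 46 with 1 tumour left out. The causes of these shifts were not tested.

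Directions turned for Chtf18 with bright probesets (-0.10), for Chtf8 with the mean (-0.013) and with array medians subtracted (-0.011), for Pole3 with polish (-0.026) and bright probesets (-0.055), and for Rnaseh2c with the mean (-0.072), polish (-0.059), quantile normalization (-0.054), array medians subtracted (-0.032) and in 6 of 12 fits with 1 tumour left out (range -0.147 to 0.171). None of these genes was called. Rad9b (0.50, adjusted p = 0.203) and Blm (0.56, adjusted p = 0.0915) lost their call with bright probesets.

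The labels number the tumours of both groups 1 to 6. The deviations of same-numbered tumours had low correlations of 0.234, 0.036, -0.003, 0.172, 0.051 and 0.014. Tumours of unlike number were not compared, so these values do not settle whether the numbers pair the tumours. With the replicate block 925 genes were called, and 4 of the 9 genes and 43 partner genes against 44. Dim probesets limit Chtf18 and Fen1 most. No gene of the 9 had a tumour standing apart in its group, over 18 groups checked.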
